A study of Caenorhabditis elegans with 3 samples.

Results

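The cuticle collagens that set the body shape of Caenorhabditis elegans without forming its furrows were followed in late L4 larvae (the last larval stage) and young adults. The 10 genes are dpy-4, dpy-5, dpy-13, dpy-14, dpy-17, sqt-1, sqt-2, sqt-3, lon-3 and rol-8, taken as a list of gene names. Of these, 9 had a spot on the arrays that the platform's annotation gives to that gene alone, 1 spot each, with a value on all 3 arrays. The gene dpy-14 had no listed spot and was not analysed here. They stand among 15119 genes with a value on every array, from 20000 spots.

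Each of the 3 arrays has 2 channels. Channel 2 held RNA of hermaphrodites at the late L4 or young adult stage, from a preparation numbered prep 1, 2 or 3, and channel 1 held a mixed wild-type RNA that served all arrays as reference. The labels name no mutation, transgene, treatment or age in hours, and they do not say what the reference mixes. All 3 staged labels share a code that they do not explain. The array titles carry a date that differs between the 3 arrays and whose meaning is not given, so date and prep cannot be told apart. Whether the preps were separate cultures is not stated, so part of the spread among these 3 preps may be technical. The p-values speak of these 3 preps only, and of their spread only in part, since the test also draws on the variances of all genes.

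The nematode cuticle is a collagen matrix that the epidermis secretes anew at each larval stage, beneath the old cuticle that is then shed at the moult. Single-chain procollagens are hydroxylated and folded into triple helices in the secretory pathway, trimmed by proteases, and then cross-linked outside the cell. Collagen genes are transcribed in pulses that recur with every moult, with the genes of the annular furrows among the early ones. Mutants of single collagens give animals that are short and stout (dumpy), long, or twisted along the body axis so that they roll, and the gene names record these shapes.

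All values are log2 ratios, likely staged RNA over reference, since channel 2 is the staged RNA throughout. The files do not state the direction, and with the other one every "higher" and "lower" would turn. "Called" means a Benjamini-Hochberg adjusted p under 0.05 for the mean of the 3 arrays against 0 in limma's test over all genes. Errors are SDs over the arrays (n = 3). In whole animals, fewer cells of a type and less RNA per cell cannot be told apart.

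Across all genes, which are not independent replicates, Pearson's r between 2 arrays was 0.65 to 0.68, and the array medians were 0.04, -0.09 and -0.06 in preps 1, 2 and 3. As a check of the stage, the adult cuticle collagens col-7, col-19 and col-62 were called higher, with means of 3.80 ± 0.39, 2.24 ± 0.69 and 4.05 ± 0.75. Of 27 major sperm protein genes 26 were called higher, against 11.3% of all genes, and msp-38 at -0.19 ± 0.49 did not pass. Of 16 oocyte and eggshell genes only 2 were called higher, and of 8 genes that anchor the epidermis 2. These lists were chosen with earlier results of these data known.

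The body-shape collagens ran from far above to far below the reference. The dumpy genes dpy-13 and dpy-4 were called higher, at 2.12 ± 2.25 and 1.52 ± 1.60. The genes dpy-17 and rol-8 were called lower, at -1.78 ± 0.97 and -1.99 ± 1.63. The means of sqt-1, lon-3, sqt-2, dpy-5 and sqt-3 lay between 0.40 and -0.48 and did not pass. Thus 2 of 9 were called higher, where 11.3% of all genes were, and 2 of 9 lower, against 9.37% of all genes. With so few members these counts say little about the list, and the median of the members' means was -0.02, against -0.04 over all genes.

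The 3 arrays differed widely for these genes, with prep 1 apart from the other two. In prep 1 all 9 values were below 0, from -3.84 for rol-8 to -0.06 for dpy-5, with a median of -1.20. Those of dpy-5 and lon-3 (-0.08) were close to 0. In prep 2 they ran from -1.48 to 3.82 with a median of 0.55, and in prep 3 from -1.38 to 2.97 with a median of 0.54. The values above 0 were 6 of 9 in prep 2 and 6 of 9 in prep 3. Over all genes, 47.7% of values were below 0 in prep 1, 55.7% in prep 2 and 53.8% in prep 3. Of the members, 7 had their lowest value in prep 1, whereas 32.9% of all genes had a value in prep 1 below those of the other two preps.

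**Figure D1:**
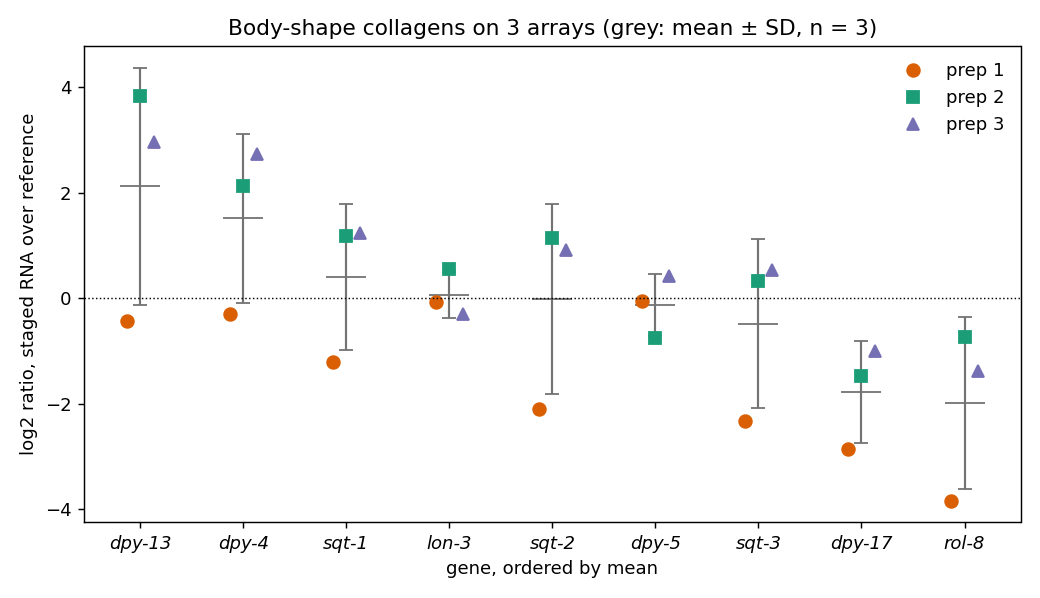
Log2 ratio (y axis) of each body-shape collagen gene (x axis, ordered by mean) in prep 1 (circles), prep 2 (squares) and prep 3 (triangles), with grey bars for the mean ± SD of the 3 arrays. All 9 circles lie below 0, those of dpy-5 and lon-3 just below it, and for 7 genes the circle is the lowest point.

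The dumpy genes with the highest means came first. The gene dpy-13 (F30B5.1, chromosome IV) encodes a collagen whose loss shortens the animal strongly. Prep 1 gave a log2 ratio of -0.43, prep 2 one of 3.82 and prep 3 one of 2.97. That is 14.2-fold above the reference in prep 2 and 7.82-fold in prep 3, but below it in prep 1. The mean was 2.12 (95% interval 0.81 to 3.43, limma adjusted p = 0.0273). Its SD of 2.25 was larger than the mean, and limma's test passed with a standard error of 0.60 that draws on the variances of all genes. The call was lost with a variance prior made robust to outlying genes (limma adjusted p = 0.119), with each array centred on its median (adjusted p = 0.0538) and without prep 2 (mean 1.27). It was also lost with centring within supposed print blocks (limma adjusted p = 0.0871) and at a threshold of 0.01.

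The gene dpy-4 (Y41E3.2, chromosome IV), another collagen whose loss gives a dumpy body, was also lowest in prep 1. It stood at -0.30 in prep 1, 2.12 in prep 2 and 2.73 in prep 3, so that only preps 2 and 3 were above the reference, by 4.35-fold and 6.65-fold. The mean was 1.52 (95% interval 0.52 to 2.52, limma adjusted p = 0.0362). Under 14 other settings dpy-4 was called higher in 7 and dpy-13 in 9, and neither was called lower in any. The SD of dpy-4, 1.60, was larger than its mean, and its standard error of 0.46 also draws on the variances of all genes. Its call was lost without prep 2 (mean 1.22) or prep 3 (mean 0.91) and at a threshold of 0.01. It was also lost with each array centred on its median (limma adjusted p = 0.0631) or within supposed print blocks (adjusted p = 0.0636). The same held with arrays centred and scaled to one spread (adjusted p = 0.0538) and with the robust variance prior (adjusted p = 0.118). In the RefSeq annotation dpy-4 overlaps the gene atln-2, which has a spot of its own at -1.68, -0.92 and -0.38 in preps 1, 2 and 3. That gene was called lower (limma adjusted p = 0.0302), and its values rose from prep 1 to prep 3 as those of dpy-4 did. Whether the overlap affects the spot of dpy-4 was not tested.

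The gene dpy-5 (F27C1.8, chromosome I), a collagen also needed for normal body length, differed from these. Its values were -0.06, -0.76 and 0.43 in preps 1, 2 and 3, so its lowest array was prep 2. The mean of -0.13 ± 0.60 did not pass (limma adjusted p = 0.793, 95% interval -0.74 to 0.48). An interval of this width allows a difference of up to 0.74 on the log2 scale below the reference.

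The products of dpy-17 and sqt-3 are known to depend on each other. Secretion of the SQT-3 collagen requires DPY-17, and the astacin protease DPY-31 processes SQT-3. The gene dpy-17 (F54D8.1, chromosome III) stood at -2.87, -1.48 and -1.01 in preps 1, 2 and 3. All 3 arrays were below the reference, by 7.30-fold, 2.79-fold and 2.01-fold. The mean was -1.78 (95% interval -2.52 to -1.05, limma adjusted p = 0.00324). This was the one call among the members that held under each of 14 other settings. Its limma adjusted p ran there from 2.97e-07 without prep 3 to 0.0274 without prep 1, fits that rest on 2 arrays.

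The gene sqt-3 (F23H12.4, chromosome V), whose loss is lethal or dumpy, stood at -2.33 in prep 1, 0.33 in prep 2 and 0.54 in prep 3. The array of prep 1 was 5.03-fold below the reference and the other two were slightly above it. Its mean of -0.48 ± 1.60 did not pass (limma adjusted p = 0.504), and without prep 3 sqt-3 was called lower at -0.997, while without prep 1 its mean was 0.44. The ratio of sqt-3 exceeded that of dpy-17 on each array, by 0.54, 1.81 and 1.55 in preps 1, 2 and 3. The protease gene dpy-31 itself stood at -0.86, -0.42 and -0.52 and did not pass (limma adjusted p = 0.108).

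The squat and roller genes sqt-1, sqt-2 and rol-8 lie on chromosome II, and alleles of each can twist the body. The gene sqt-1 (B0491.2), whose alleles give long, dumpy or rolling animals, stood at -1.20 in prep 1, 1.18 in prep 2 and 1.23 in prep 3. The gene sqt-2 (C01B12.1) stood at -2.10, 1.13 and 0.92. Prep 1 was 2.30-fold below the reference for sqt-1 and 4.29-fold for sqt-2, and the other two arrays were above it for both. Their means of 0.40 ± 1.39 and -0.02 ± 1.81 did not pass (limma adjusted p = 0.543 and 0.987). Without prep 1 both were called higher, at 1.21 and 1.02 (limma adjusted p = 0.0255 and 0.0463).

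The gene rol-8 (ZK1290.3) had the lowest mean. Its values were -3.84 in prep 1, -0.74 in prep 2 and -1.38 in prep 3, all below the reference, by 14.3-fold in prep 1 and by 1.67-fold and 2.597-fold in the other two. The mean was -1.99 (95% interval -3.001 to -0.97, limma adjusted p = 0.0110). Its standard error of 0.46 draws on the variances of all genes, and the interval leaves out the values of preps 1 and 2. Without prep 1 the mean was -1.06 and the call was lost (limma adjusted p = 0.0533), and it was also lost with the robust variance prior (adjusted p = 0.0583). The same held with centring within supposed print blocks (limma adjusted p = 0.0544) and at a threshold of 0.01. The gene rol-8 was called lower under 10 of 14 other settings.

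The gene lon-3 (ZK836.1, chromosome V) works the other way on shape, since animals without it are long and animals with extra copies are dumpy. It had the smallest spread of the members. Its values were -0.08, 0.55 and -0.30 in preps 1, 2 and 3, on both sides of 0, with a mean of 0.06 ± 0.44 (limma adjusted p = 0.905, 95% interval -0.51 to 0.63). In the RefSeq annotation lon-3 overlaps ogdh-2, whose own spot read 0.57, -1.36 and -0.67.

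Ordered by mean log2 ratio, the genes ran dpy-13, dpy-4, sqt-1, lon-3, sqt-2, dpy-5, sqt-3, dpy-17 and rol-8. These are differences from the reference and not levels of RNA. For each pair of neighbours in that order except sqt-3 and dpy-17, and dpy-4 and sqt-1, the mean difference was smaller than its SD over the arrays. The ratio of dpy-4 exceeded that of sqt-1 by 1.11 ± 0.33, and that of sqt-3 exceeded that of dpy-17 by 1.30 ± 0.67. With 3 arrays an exact two-sided sign-flip test of such a difference cannot go below p = 0.25, so none was tested.

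The order of the genes was partly kept from array to array, although prep 1 was lower. Of 36 pairs of members, 22 were in the same order on all 3 arrays, and no such count was made for other genes. The pairs that changed order mostly held lon-3 or dpy-5, a grouping seen in the data: of the 15 such pairs 3 kept their order, and of the 21 others 19 did. The exceptions among those 21 were dpy-13 with dpy-4 and dpy-17 with rol-8, the top and the bottom pair.

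The size of the gap between preps was compared with that of all genes. From prep 2 to prep 1 the median difference of the members was -2.42, with 8 of 9 lower in prep 1, while over all genes it was 0.06. From prep 3 to prep 1 it was -2.46, again with 8 of 9 lower, against 0.02 over all genes. Of all 15119 genes, 7027 were lower in prep 1 than in prep 2, and 7344 lower than in prep 3. In each of these differences 7 of the 9 lay below the 5th percentile of all genes, which was -1.37 and -1.28. Between preps 2 and 3 the median difference was -0.05, and 1 of 9 lay outside the 5th to 95th percentile of all genes. The largest gap was that of dpy-13, at -4.26 from prep 2 to prep 1 and -3.40 from prep 3. The smallest was that of dpy-17 among the 7 genes that were lowest in prep 1, at -1.39 and -1.86.

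**Figure D2:**
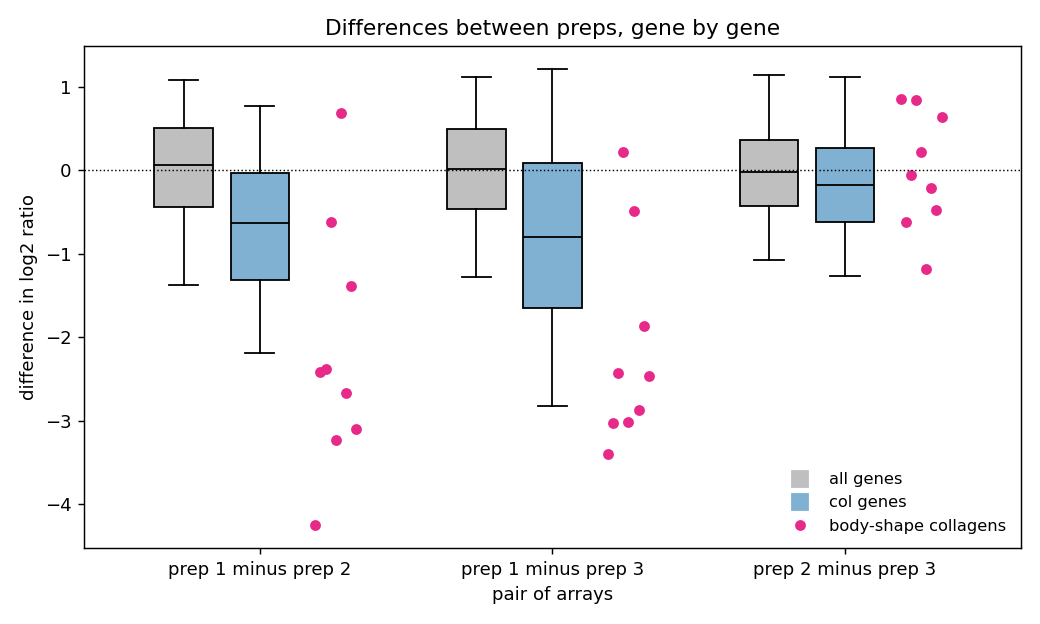
Difference in log2 ratio between 2 arrays (y axis) for each pair of preps (x axis). Boxes show the quartiles and whiskers the 5th and 95th percentiles of all 15119 genes (grey) and of 135 genes named col (blue), and points show the 9 body-shape collagens. The members' median was -2.42 and -2.46 where prep 1 enters and -0.05 between preps 2 and 3.

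Other collagens also lay lower in prep 1. The 135 genes named col differed by a median of -0.63 from prep 2 to prep 1 and of -0.80 from prep 3. Of them 102 and 99 were lower in prep 1, against 7027 and 7344 of all 15119 genes. The 5 furrow collagens measured differed by -1.37 and -1.16, with 5 of 5 lower in both. For bli-1, bli-2 and rol-6 the medians were -1.12 and -2.48, with 3 of 3 lower in both, and the latter is as large as that of the members. Whether the body-shape collagens differ from these in that gap was not tested, since each prep is 1 array. After each array was centred within its supposed print blocks, a setting for these differences added after seeing the data, the members' medians were -2.54 and -2.79. Then 7 of 9 were still lowest in prep 1, where 40.5% of all genes were, but lon-3 stood at 0.49 there and no longer below 0.

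The SD exceeded 1 in 6 of 9 members, all but dpy-17, dpy-5 and lon-3, whereas 4.15% of all genes had such an SD. The median SD was 1.60 in the members, 0.62 in the col genes and 0.39 in all genes. Among the called genes, dpy-13 stood at percentile 99.97 of all genes by SD, rol-8 at 99.57, dpy-4 at 99.51 and dpy-17 at 95.4.

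**Figure D3:**
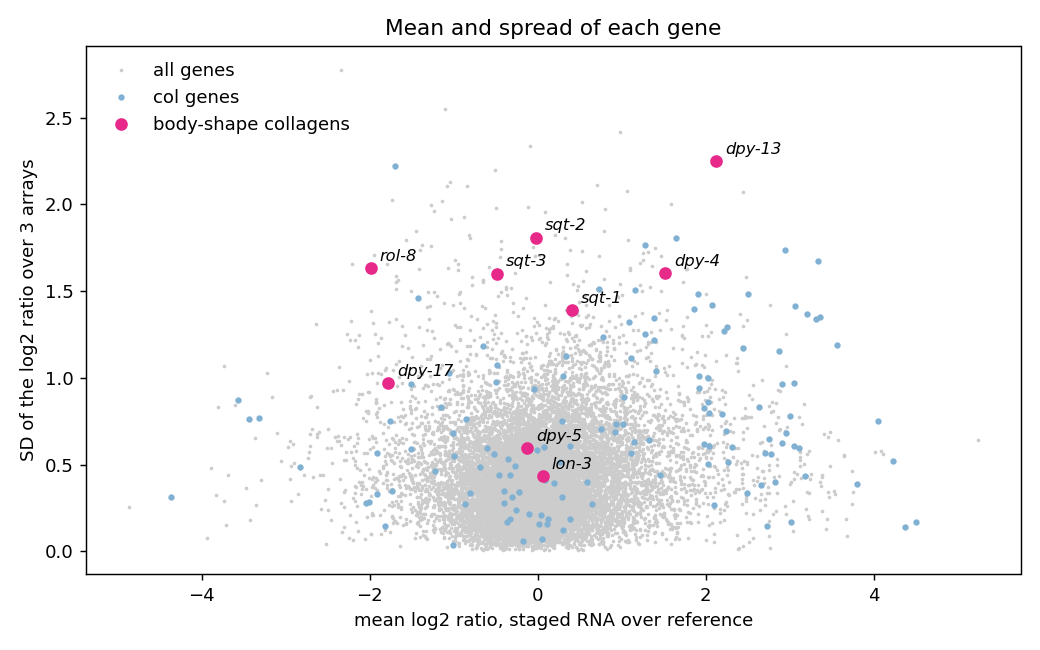
Mean log2 ratio over 3 arrays (x axis) and its SD (y axis) for all genes (grey), genes named col (blue) and body-shape collagens (pink, named). Of the pink points 6 lie above an SD of 1, and lon-3 at 0.44 and dpy-5 at 0.60 lie within the mass of genes.

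The calls moved with the array left out. Without prep 1, limma called dpy-13, dpy-4, sqt-1 and sqt-2 higher, which is 4 of 9 against 7.24% of all genes, and dpy-17 lower, which is 1 of 9 against 4.42%. The means of dpy-13 and dpy-4 were then 3.40 and 2.43. Without prep 2, limma called 0 of 9 higher (2 at an unadjusted p under 0.05), against 9.19% of all genes, and dpy-17 and rol-8 were called lower against 7.75%. Without prep 3, dpy-13 was called higher at 1.70 (10.6% of all genes), and dpy-17, sqt-3 and rol-8 were called lower (8.62% of all genes). In these fits the variance rests on 2 arrays and on the prior from all genes. In the fit without prep 3 the members' adjusted p-values followed the size of the mean, whatever the gap between the 2 arrays. The calls of dpy-13 (-0.43 and 3.82 in preps 1 and 2) and sqt-3 (-2.33 and 0.33) there do not show that the 2 arrays agree.

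**Figure D4:**
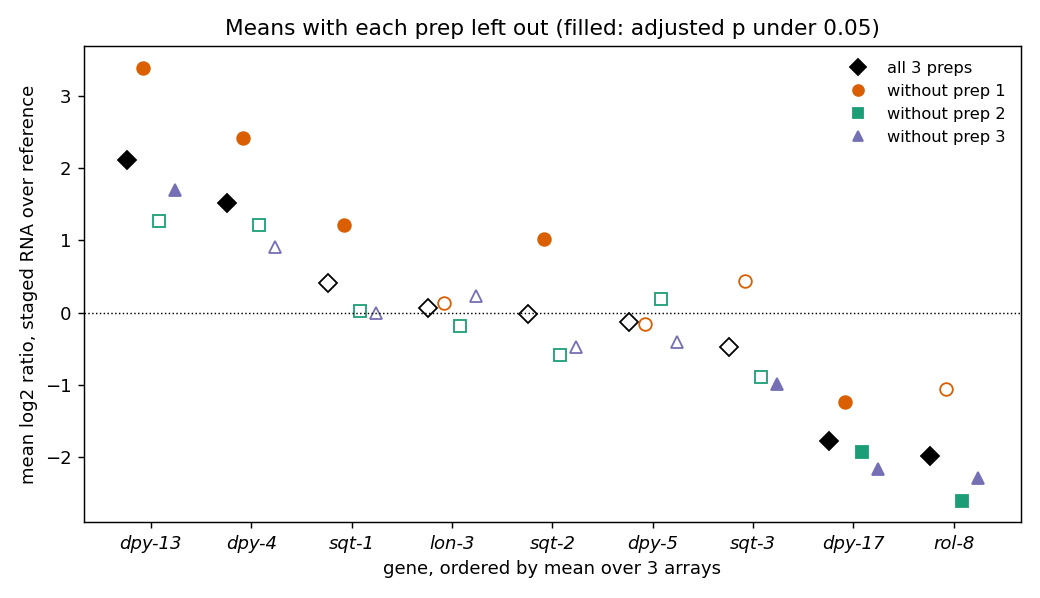
Mean log2 ratio (y axis) of each body-shape collagen (x axis) over all 3 preps (diamonds) and with prep 1, 2 or 3 left out (circles, squares, triangles). Filled symbols mark an adjusted p under 0.05 in limma's test over all genes, and dpy-17 is the one gene filled in all 4 fits.

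Furrow collagens, whose loss also gives dumpy animals and removes the annular furrows, had a lower median. Of 5 measured, limma called 3 lower (9.37% of all genes) and 0 higher (11.3% of all genes), also 0 higher at an unadjusted p under 0.05. The called genes were dpy-7 at -1.79 ± 0.72, dpy-9 at -1.47 ± 0.95 and dpy-2 at -1.42 ± 0.72. The means of dpy-8 at -0.49 ± 1.32 and dpy-3 at -0.39 ± 0.68 did not pass. The list stood at -2.24, -0.82 and -1.03 at the median of preps 1, 2 and 3, against -1.20, 0.55 and 0.54 for the body-shape collagens. Without prep 1, limma called 1 furrow gene lower. The blister genes bli-1 and bli-2, which encode collagens of the struts in the adult cuticle, were called higher at 1.77 ± 0.63 and 2.02 ± 1.24. The roller collagen rol-6, a genetic partner of sqt-1, stood at -3.56, -0.68 and -0.11 in preps 1, 2 and 3 and did not pass. Of these 3 genes, 1 was called lower without prep 2 or without prep 3, and that was rol-6.

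The most similar cuticle collagen was sought for each member among 151 others, by the root mean square difference of the 3 log2 ratios. The closest match of all was that of dpy-17 with the furrow collagen dpy-7, at a difference of 0.22, where dpy-7 itself stood at -2.61, -1.47 and -1.28. The gene lon-3 was closest to col-132 at 0.25, dpy-4 to col-104 at 0.28, sqt-1 to col-10 at 0.28, dpy-5 to col-78 at 0.34 and sqt-3 to col-174 at 0.40. For sqt-2 the closest was sqt-3 at 0.53, and for rol-8 it was dpy-17 at 0.73. The gene dpy-13 had no match nearer than col-97 at 0.85, which stood at 0.23, 2.51 and 3.003. With 3 arrays and a shared reference these matches are descriptions.

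Counts in the lists that follow stand beside those of all 15119 genes, of which 11.3% were called higher and 9.37% lower. At an unadjusted p under 0.05, 2620 genes were higher and 2472 lower. With short lists, counts near these shares say little about a list. Of 17 genes that fold, modify, cut or cross-link collagen chains, limma called 3 higher and 0 lower, and 14 did not pass. At an unadjusted p under 0.05, 6 of the 17 were higher and 2 lower. The called genes were the protein disulfide isomerase genes pdi-1 at 1.16 ± 0.37, pdi-2, which also serves as a subunit of prolyl 4-hydroxylase, at 1.10 ± 0.22, and pdi-3 at 0.91 ± 0.48. The prolyl 4-hydroxylase genes dpy-18 and phy-2 stood at 0.97 ± 1.24 and -0.84 ± 0.69, and neither passed. In dpy-18 the values were -0.24, 0.93 and 2.23 in preps 1, 2 and 3. The medians of the list were -0.16, 0.03 and 0.32, so its arrays lay closer together than those of the collagens.

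Of 10 measured transcription and timing factors of the epidermis, limma called 0 higher and 1 lower, myrf-2 at -0.99 ± 0.17. Of all genes, 11.3% were called higher and 9.37% lower. At an unadjusted p under 0.05 the counts were 0 and 6, against 2620 and 2472 of all 15119 genes. The nuclear receptor genes nhr-23, needed for moulting, and nhr-25 stood at 0.38 ± 0.42 and -0.85 ± 0.90, and the timing gene lin-42 at 0.28 ± 0.93; none of these passed. Without prep 1, limma called 0 of the list (2 lower at an unadjusted p under 0.05), and without prep 2 it called 2 lower. Of 10 genes of the TGF-beta pathway that sets body size, limma called 0 higher and 2 lower, also at an unadjusted p under 0.05, the receptor gene daf-4 at -1.03 ± 0.25 and the Smad gene sma-2 at -1.10 ± 0.27. Without prep 2, limma called 0 of the list (3 lower at an unadjusted p under 0.05). The highest means were those of lon-1 at -0.03 ± 0.42 and lon-2 at -0.17 ± 0.24, which did not pass.

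Stage markers also differed between the preps. For 11 moulting genes prep 1 had a median of -2.24, prep 2 of -0.49 and prep 3 of -0.51, with 9 of 11 lowest in prep 1 and values there from -3.49 to 0.07. Of them 5 were called lower, with noah-1 at -1.77 ± 1.32 and ptr-4 at -1.68 ± 1.59 lowest, and nas-36 at 1.31 ± 1.72 and nas-37 at -0.28 ± 0.34 highest without a call. Without prep 1, limma called 0 of these lower (3 at an unadjusted p under 0.05), and without prep 3 it called 8. With median centring limma called 2 lower, with print-block centring 2 and with arrays scaled to one spread 3, and 1 moulting gene was called higher without prep 1 or without prep 2. The 16 oocyte and eggshell genes stood highest in prep 1, with medians of 1.31, -0.08 and -0.34, and 0 of 16 were lowest in prep 1. Of these, egg-4 at 1.37 ± 0.15 and cbd-1 at 1.35 ± 1.26 were called higher, and perm-2 at -0.11 ± 0.39 and egg-1 at -0.33 ± 0.21 were lowest without a call; 1 was called without prep 1 and 5 without prep 3. The adult collagens col-7 and col-62 were lowest in prep 1 at 3.45 and 3.31, and col-19 was highest there at 3.04. The 8 genes that anchor the epidermis had medians of 0.25, 0.67 and 0.48, with ifb-1 at 1.46 ± 0.22 and mup-4 at 1.30 ± 0.60 called higher (1 of the list was called without prep 2) and vab-10 at 0.23 ± 0.45 and vab-19 at 0.06 ± 0.18 lowest. The part of any of these in the collagens' gap was not tested.

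**Figure D5:**
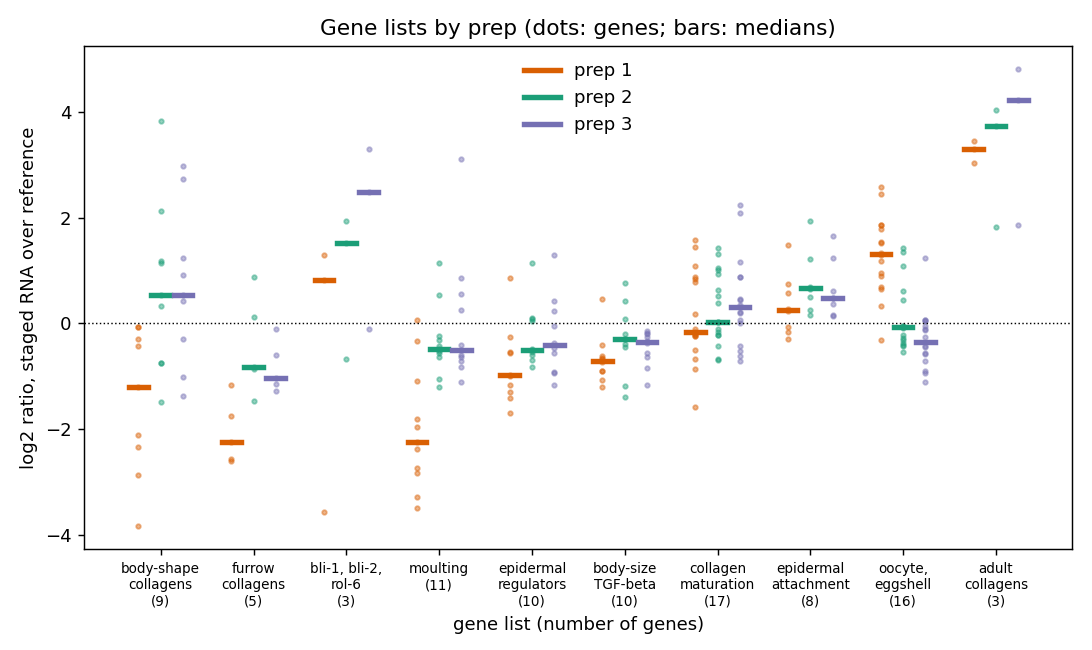
Log2 ratio (y axis) of the genes in each list (x axis, number of genes in brackets) in preps 1, 2 and 3, with dots for genes and bars for medians. The sperm genes are not drawn. The bars of the body-shape collagens (-1.20, 0.55, 0.54), furrow collagens (-2.24, -0.82, -1.03) and moulting genes (-2.24, -0.49, -0.51) are lowest in prep 1, and that of oocyte genes (1.31, -0.08, -0.34) is highest there.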

How the data were processed

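RNA of 3 staged preps was hybridised against 1 common reference on 2-channel arrays, per the labels. The authors deposited 1 log2 ratio per spot and array; the sources used here do not give the dyes, image software, background correction or normalization. The base was tested: every ratio under 0.6 was a multiple of 0.001, to a tolerance of 1% of that step. No intensities were given, so dim or saturated spots were kept; the number of arrays limits the precision. Of 20000 spots, 15655 had 1 gene in the platform annotation, 198 had several and 4147 none listed. Symbols were updated through gene identifiers in a RefSeq table (assembly WBcel235; 86 spots had no match). The files name no genome build, so no coordinates are given. Spots of a gene were averaged; collagens with similar sequences may share signal.

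Means were tested against 0 with limma 3.58.1 (R 4.3.3; lmFit, eBayes, two-sided) over 15119 genes, with Benjamini-Hochberg adjustment at 0.05. The reference's own spread is left out. The working of the test was checked on simulated data with normal noise and limma's own fitted variances. That check meets the model by construction, so it cannot speak for genes of outlying spread. Members and lists were chosen with earlier results of these data known. Every measured member was named, with the 2 highest and 2 lowest genes of each list other than the sperm list (all genes of lists of 6 or fewer) and the nearest collagen of each member; dpy-18, pdi-3, msp-38, atln-2 and ogdh-2 were named outside that rule, after their values were seen. Alternatives changed centring, scale, print-block position, weights, variance prior, spot handling, thresholds and the preps used.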

Additional observations from a re-analysis of the deposited data

How the results depend on the processing

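The count of members called higher, 2, was 0 with each array centred on its median, with centring within print blocks, with the robust variance prior and at a threshold of 0.01, and 1 with arrays centred and scaled to one spread. The count called lower, 2, was 1 with print-block centring, with the robust prior and at 0.01. Leaving out 1 prep gave 0 to 4 members called higher and 1 to 3 called lower, and a median of the members' means from -0.41 to 0.44 against -0.02. The mean of sqt-2 changed sign to 0.020 with median centring, 0.16 with scaling, 0.15 with quantile normalization, 0.044 with print-block centring and 0.32 with array weights. Over the fits that left out 1 prep, the means that changed sign ranged from -0.59 to 1.02 for sqt-2, from -0.997 to 0.44 for sqt-3, from -0.41 to 0.18 for dpy-5, from -0.19 to 0.24 for lon-3 and from -0.010 to 1.21 for sqt-1. The cause of these changes was not tested. Where a prep was left out, the number of arrays was also smaller. Over all genes, limma called 1095 higher and 668 lower without prep 1, against 1709 and 1417. Median centring moved the share of higher calls from 54.7% to 59.5%. No paired analysis was possible because the series has 1 group of samples.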
